A study of Homo sapiens with 2 samples.

Results

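Copies of ribosomal RNA (rRNA) sequence lie scattered through the human genome. Described here are 8 genes with DDX18 peaks in such copies in their introns: PDE3A, ANKRD30BL, HFM1, SLCO5A1, PID1, PHKB, EYA4 and DIP2C. The 15 highest positions of the peak list lay in PDE3A, ANKRD30BL, HFM1, SLCO5A1 and PID1. The highest peaks of PHKB, EYA4 and DIP2C ranked 24, 32 and 33. The 8 genes were chosen from the deposited peak list, by their high peaks in rRNA copies, and their members are the rows called in those genes. A peak counted as lying in an rRNA copy when its annotation named a repeat of the class rRNA: the small-subunit type (SSU, 18S), the large-subunit type (LSU, 28S) or 5S. These genes had 35 peaks, of which 32 lay in rRNA copies, out of 84 rRNA-class peaks and 16095 distinct positions in the whole list. Because peak height chose the genes, every height below is a description, and no test was made on it.

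The list came from individual-nucleotide crosslinking and immunoprecipitation (iCLIP), a method in which ultraviolet light joins a protein to the RNA it touches. The cells were H9, an established line of human embryonic stem cells, which made DDX18 fused to a 3XFlag tag, were cultured without any added agent on feeder fibroblasts from mouse embryos, and received 160 mJ/cm2 of light at 254 nm. The 1 group, 3XFlag-DDX18, has 2 samples, which share 1 peak list, so no spread between samples can be given and no input or untagged sample was used here. Nothing in the labels says whether the samples came from separate cultures, or whether the line was 1 clone. Of the genes that mark such cells, LIN28A had 16 peaks, DNMT3B 16, L1TD1 3 and NANOG 1, whereas POU5F1 and SOX2 had none in the list.

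DDX18 belongs to the DEAD-box family of RNA helicases and acts in the nucleolus, the compartment in which rRNA is transcribed and processed and ribosomal subunits are put together. The 18S rRNA belongs to the small ribosomal subunit, whereas the 28S and 5S rRNAs belong to the large one. 18S and 28S are cut from 1 long precursor made from tandem gene arrays, and 5S is transcribed from genes of its own by a different polymerase. A read from rRNA itself and a read from a host intron have the same letters wherever the copy is identical to the rRNA. These sources cannot be told apart in the peak list, so a peak is described by the gene in which it was called and not as RNA of that gene.

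The 32 peaks made up 0.199% of the positions in the list (exact 95% binomial interval 0.136 to 0.281) but 58.1% of its summed height, and 96.7% of the height in all rRNA copies. Height is the authors' whole-number value of each peak, not scaled to depth or to how abundant the RNA is. Shares of height are given without an interval, since reads are not independent molecules, and reads per sample are unknown here. The interval for positions covers counting error only. The median height of the 32 peaks was 3350, against 20 for the 52 rRNA-class peaks of other genes and 6 for the 2883 intronic peaks outside rRNA copies. The 15 highest positions of the list were all among the 32, as were 16 of its 20 highest. Height was also uneven within the 32, since the highest 2 held 34.4% of their sum, the highest 5 held 63.6% and the highest 10 held 87.0%. At the other end, 22 of the 32 reached a height of 1000 and 4 stayed under 100.

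**Figure D1:**
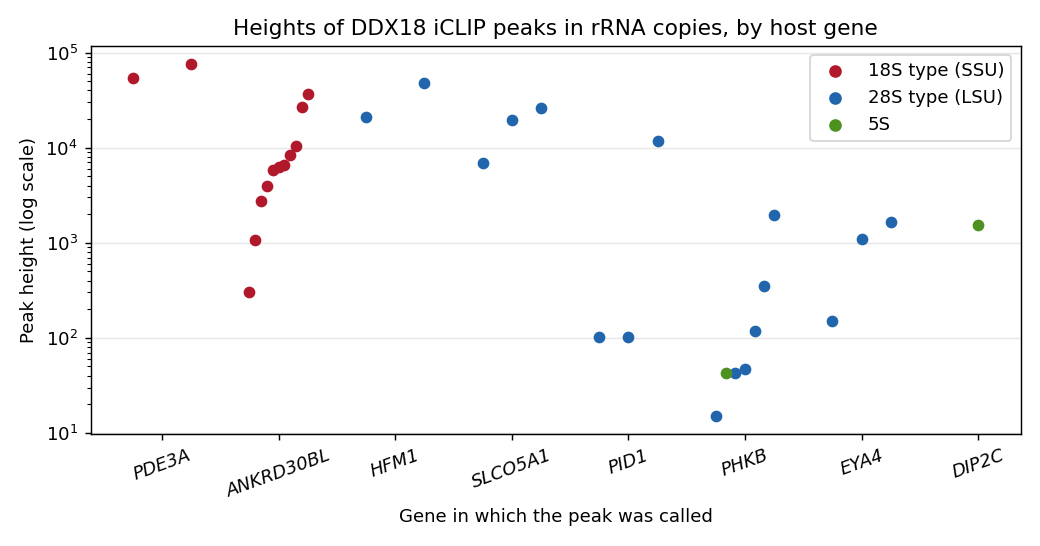
Height of each of the 32 peaks in rRNA copies (log axis) by host gene, with 1 point a peak, spread sideways by rank and coloured by copy type. PDE3A and HFM1 hold only peaks of 21065 or higher, whereas PHKB runs from 15 to 1955 and DIP2C has a single 5S peak of 1554.

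The genes differed in the type of copy in which peaks were called. PDE3A and ANKRD30BL had peaks in SSU copies, HFM1, SLCO5A1, PID1, PHKB and EYA4 in LSU copies, and DIP2C in a 5S copy. PHKB was the only one of the 8 with peaks of a second type, a 5S peak beside its LSU peaks. Copies without a peak were not searched for. The 13 SSU peaks of the 2 genes summed to 239817, or 63.2% of the members' height in rRNA copies, the 17 LSU peaks to 138239 (36.4%) and the 2 peaks of 5S to 1597 (0.421%). The median height was 6528 for SSU and 1107 for LSU peaks. Of all SSU height in the list, 99.2% lay in PDE3A and ANKRD30BL, against 0.766% in the 4 SSU peaks of other genes. Of all LSU height, 93.6% lay in the 5 genes named above, against 6.40% in 26 peaks of other genes. For 5S, 46.2% lay in DIP2C and PHKB and 53.8% in 22 peaks of other genes. The 8 genes held a smaller share of the 5S height than of the SSU or LSU height. Their share of the peaks was 8.33% for 5S, 76.5% for SSU and 39.5% for LSU, and 11 of the 17 SSU peaks were those of ANKRD30BL. Because the genes were chosen by high peaks, these shares describe the choice and are not a result about copy types.

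All 32 peaks were intronic, and each gene had its rRNA-copy peaks in 1 intron. They lay on the strand of the host gene in the 6 genes whose strand the RefSeq promoter table gives (6 of 6). Members are peaks called in these genes, so the match may come from the calling and says nothing about the copies. Peaks on the plus strand numbered 12 and on the minus strand 20. The orientation of each copy within its intron was not analysed here. The annotation names the repeat but not its limits, so neighbouring peaks of 1 gene and type within 1000 nt were put in 1 stretch, and places are distances along the peak strand from the first peak of the stretch. This gave 9 stretches, 7 of them with more than 1 peak. For scale, RefSeq gives 1869 nt for 18S (RNA18SN5), 5070 nt for 28S (RNA28SN5) and 121 nt for 5S (RNA5S1).

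PDE3A, which encodes a phosphodiesterase that breaks down cyclic nucleotides, had only 2 peaks, and they were the highest of the whole list. They stood in intron 1 of 15, at positions 20704411 and 20704477 of chromosome 12 (hg19 throughout), 66 nt apart. The upstream peak had a height of 76702 and the downstream peak 53870, a ratio of 1.42. Both were a single base wide. Together they summed to 130572, which is 20.0% of all height in the list.

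ANKRD30BL, an ankyrin-repeat gene, had the longest run of peaks. Its 11 SSU peaks in intron 1 of 4 covered 1190 nt, from 133011959 to 133013149 of chromosome 2 on the minus strand. Read along the strand, the first peak had a height of 3958, the next, 139 nt on, had 302, and the third, at 201 nt, had 8358. The next peaks had heights of 26993 at 294 nt, 10535 at 385 nt and 36600 at 552 nt, the highest of the run. After a low peak of 1074 at 681 nt, the last peaks had heights of 5817 at 832 nt, 6528 at 1009.5 nt, 2742 at 1092.5 nt and 6338 at 1190 nt. The peaks at 294 and 552 nt held 58.2% of the height of the run. The highest was 121 times the lowest. Neighbouring peaks lay 62 to 177.5 nt apart.

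A further 3 peaks of ANKRD30BL carried no rRNA repeat name, and they were the only peaks of the 8 genes outside rRNA copies. One of height 1306 lay in the same intron, 1220.5 nt downstream of the nearest SSU peak. Those of height 2523 and 1051 lay 2079.5 and 2169 nt upstream of the nearest SSU peak, and the annotation labelled them promoter-TSS of MIR663B, a microRNA gene within the same stretch of the chromosome. The distances in the list put the MIR663B start at 133014653, so these peaks lay 576 and 665 nt upstream of it and the 11 SSU peaks 1504 to 2694 nt downstream. The start of ANKRD30BL itself, which the listed distances put at 133015542, was nearer to the 2 upstream peaks, which lay 313 and 224 nt downstream of it. The 3 peaks summed to 4880, and the SSU peaks made up 95.7% of the 114125 of the gene.

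The MIR663B hairpin is the annotated small RNA that lies between the SSU run and the upstream peaks, and none of the 14 peaks fell inside it. Its sequences are shown because it names the label of those 2 peaks; they are from RefSeq on GRCh38.p14, chromosome 2, minus strand, written 5′ to 3′. Capitals mark the mature microRNA in the hairpin and the seed (bases 2 to 8) in the mature form.
MIR663B hairpin: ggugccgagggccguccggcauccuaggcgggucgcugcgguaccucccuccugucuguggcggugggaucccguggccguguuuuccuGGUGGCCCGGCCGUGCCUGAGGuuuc
hsa-miR-663b: gGUGGCCCggccgugccugagg

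HFM1, which encodes a DNA helicase of meiosis, had the highest LSU peak of the list and 1 other. They stood in intron 4 of 38 on the minus strand of chromosome 1, at 91853117 with a height of 21065 and, 271 nt downstream, at 91852846 with 47395. The downstream peak was 2.25 times the upstream one, and no peak was listed between them. This spacing of 271 nt was the widest between neighbouring peaks of a stretch.

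SLCO5A1, a member of the organic anion transporter family, had 3 LSU peaks in intron 5 of 7 on the minus strand of chromosome 8, at 70602585, 70602469 and 70602390. Heights along the strand were 26033, then 19498 at 116 nt and 6966 at 195 nt. They declined in the direction of the strand, and the highest was 3.74 times the lowest. All 3 were a single base wide.

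PID1, which encodes an adaptor protein with a phosphotyrosine-interaction domain, had nearly all its height in 1 base. Its peak at 230045523 of chromosome 2, in intron 1 of 2, had a height of 11641, or 98.3% of the gene's total. The other LSU peaks, 181 and 128.5 nt upstream on the minus strand, had heights of 103 and 101. PID1 and SLCO5A1 therefore ran in opposite order, with the highest peak last in PID1 and first in SLCO5A1.

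PHKB, which encodes the beta subunit of phosphorylase kinase, had 6 LSU peaks over 508 nt and a 5S peak, all in intron 5 of 31 on the plus strand of chromosome 16. The first, at 47538743, had a height of 1955 and held 76.1% of the gene's total. It was followed by 43 at 86 nt, 15 at 195 nt, 349 at 378 nt, 118 at 456 nt and 47 at 508 nt. The heights thus had a second, smaller maximum at 378 nt. The 5S peak, of height 43, was centred 119.5 nt beyond the last LSU peak, so names of 2 rRNA types stood next to each other in this intron.

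EYA4, which encodes a transcriptional coactivator and phosphatase, had 3 LSU peaks in intron 1 of 19 on chromosome 6, starting at 133593976 on the plus strand. Their heights were 151, then 1652 at 63 nt and 1107 at 117 nt. The middle peak, 10.9 times as high as the first, was 10 nt from start to end while its neighbours were single bases.

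DIP2C had 1 peak, of height 1554, in a 5S copy of intron 35 of 36, at 328028 to 328031 of chromosome 10 on the minus strand. It was the highest 5S peak of the list. The next 5S peaks were called in TIMP4, which encodes an inhibitor of metalloproteinases (601), and in ZNF148, which encodes a zinc-finger transcription factor (407).

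**Figure D2:**
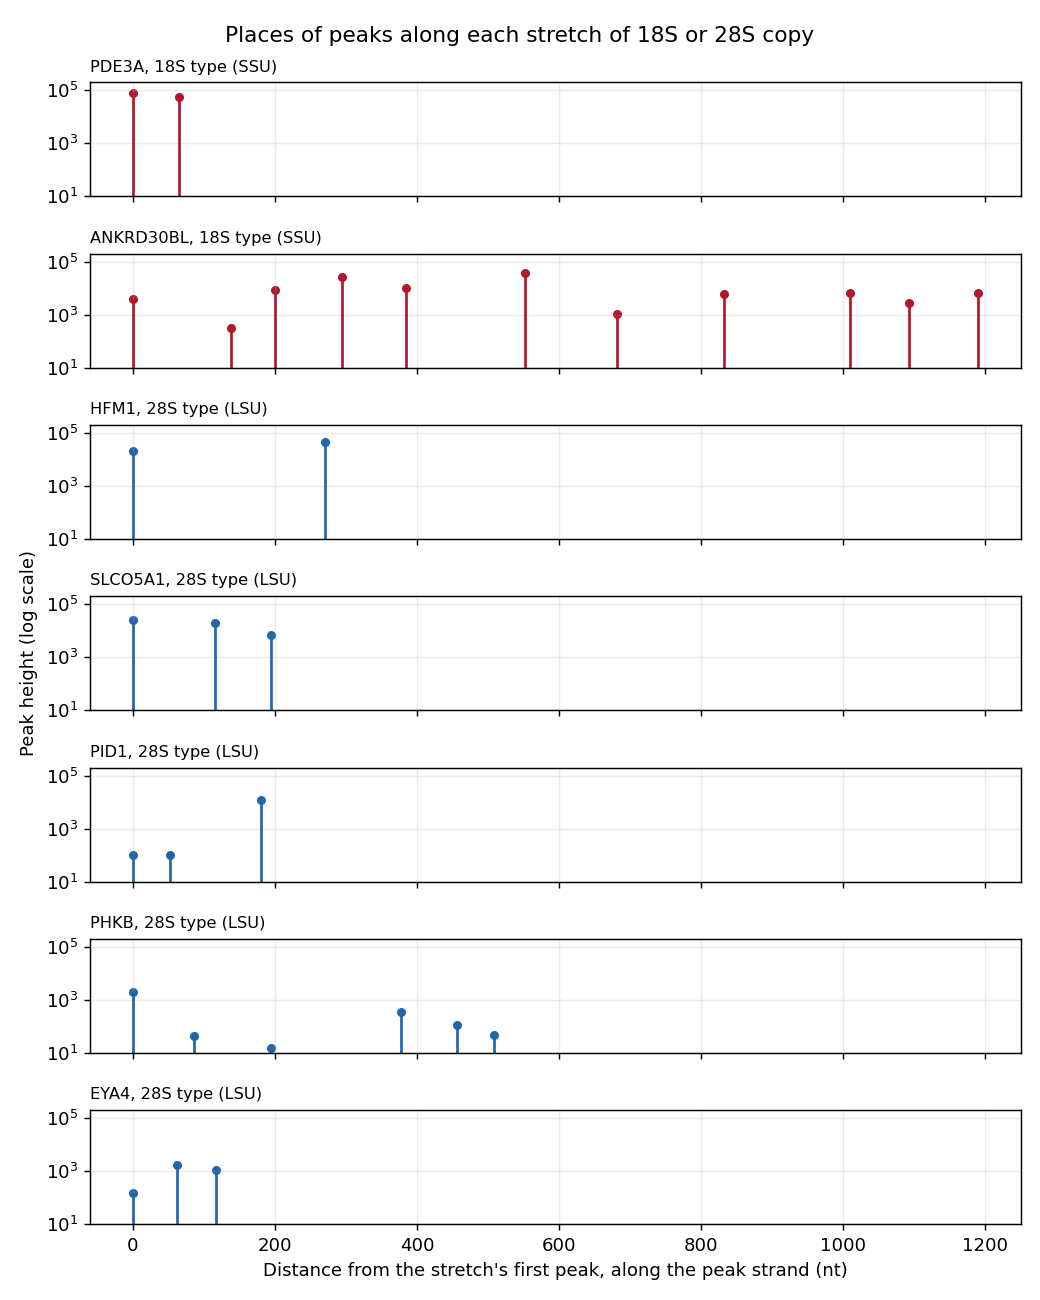
Height of each peak in SSU or LSU copies (log axis) against its distance in nt from the first peak of its stretch along the peak strand, 1 panel a gene. ANKRD30BL peaks span 1190 nt, PHKB peaks 508 nt and the other 5 genes 66 to 271 nt.

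Neighbouring peaks in the 7 stretches lay 52 to 271 nt apart, with a median of 93 nt over 23 gaps, and 13 of the gaps were between 50 and 100 nt. The median gap was 97.5 nt in SSU stretches (11 gaps) and 82.5 nt in LSU stretches (12 gaps). The spacing between any 2 peaks was also compared between stretches of 1 type, since copies of the same part of an rRNA would place equal sites equally far apart. Between LSU stretches, 8 pairs of spacings matched within 2 nt. SLCO5A1 and EYA4 shared a spacing of 116 and 117 nt, and SLCO5A1 and PHKB shared one of 195 nt, exactly, and another of 79 and 78 nt. EYA4, PHKB and PID1 shared a spacing of 54, 52 and 52.5 nt. PHKB and PID1 also shared spacings of 183 and 181 nt and of 130 and 128.5 nt. These were matches of single pairs among many compared, since PHKB has 15 spacings, EYA4, PID1 and SLCO5A1 have 3 each and HFM1 has 1. How many would match by chance was not tested. The PHKB spacings of 195 and 183 nt both involve its lowest peak, of height 15. In the 63 comparisons of 3 peaks with 3 peaks of another stretch, none matched in either direction. The single PDE3A spacing of 66 nt matched none of the 55 spacings in ANKRD30BL within 2 nt. Without the sequence of the copies, which part of the 18S or 28S rRNA each peak corresponds to was not analysed here.

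The peaks in these copies were narrow. Of the 32, 22 were a single base (68.8%, interval 49.99 to 83.9), against 1 of 52 rRNA-class peaks in other genes (1.92%, 0.0487 to 10.3) and 29 of 2883 other intronic peaks (1.01%, 0.675 to 1.44). The median span, end minus start, was 0 nt with quartiles of 0 and 2.25 nt, against 14 nt in rRNA copies of other genes and 21 nt in other introns. By type, 11 of 13 SSU peaks, 11 of 17 LSU peaks and 0 of 2 peaks in 5S copies were single bases.

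The share of single-base peaks was smaller among low peaks, though outside rRNA copies it hardly differed between the upper height classes. Single bases made up 18 of the 22 members of height 1000 or more (81.8%, 59.7 to 94.8) and 4 of the 10 lower ones (40%, 12.2 to 73.8). In rRNA copies of other genes they made up 1 of 4 peaks of height 1000 or more (25%, 0.631 to 80.6). Outside rRNA copies they made up 10 of 19 peaks of height 1000 or more (52.6%, 28.9 to 75.6), 109 of 203 of height 100 up to 1000 (53.7%, 46.6 to 60.7) and 7.26% of those under 100. The intervals treat peaks as independent, which peaks of 1 stretch are not, so they do not serve to compare the classes. At heights of 1000 or more, the members and the peaks outside rRNA copies were not equally high, with median heights of 7662 and 1738. The part of height in the narrow width was not tested, and peaks of 1 stretch share their source, so no test over peaks was made.

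**Figure D3:**
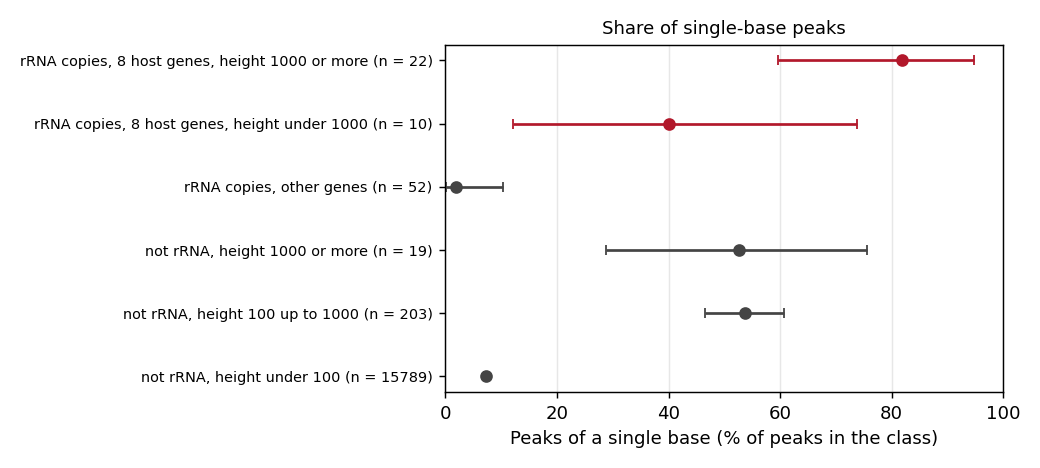
Share of peaks that are a single base wide (x axis, percent of the class), with exact 95% binomial intervals as bars, for rRNA-copy peaks of the 8 genes (red) and other peaks (grey). High peaks outside rRNA copies sit at 52.6% and 53.7%, and the high peaks of the 8 genes at 81.8%.

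Outside their rRNA copies, 7 of the 8 host genes had no peak at all, and ANKRD30BL was the exception, with its 3 peaks. RefSeq gives the 8 genes lengths of 110443 to 415468 nt (on GRCh38.p14). Among the other 47 genes called with an rRNA-class peak, 33 had no peak outside the copy and 14 did. So the absence of other peaks was common to both sets, and it was not tested as a difference. In PDE3A, HFM1 and SLCO5A1 the number read as an expected height (PH0, below) was above the list's median peak height of 8. A peak of ordinary height may not have been callable in those genes, so its absence says little about their RNA.

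Each peak name in the list also holds a second number, PH0, read here as an expected height. It had 1 value per gene in all 3056 genes with more than 1 peak. PH0 was 48.51 for ANKRD30BL, 43.18 for HFM1, 18.49 for PDE3A, 12.11 for SLCO5A1, 2.30 for PID1, 0.40 for PHKB, 0.36 for EYA4 and 0.15 for DIP2C, against a median of 0.05 over all called genes (quartiles 0.02 and 0.13). PH0 may not be independent of the peaks themselves. Among these genes it was lowest in DIP2C, the longest (415468 nt), with the lowest summed height in rRNA copies (1554). It was highest in ANKRD30BL, the shortest (110443 nt), with a summed height of 109245. How far PH0 follows the height and length of a gene was not tested, so the ratio to PH0 is a description only. Measured by this ratio, the order of the genes changed. DIP2C led with a ratio of 10360 for its single peak, followed by PID1 (5061), PHKB (4888), EYA4 (4589) and PDE3A (4148). SLCO5A1 (2150), HFM1 (1098) and ANKRD30BL (754) had the lowest ratios for their highest peaks. The authors' p-value was likewise not ordered by height: all 17 peaks of SLCO5A1, PID1, PHKB, EYA4 and DIP2C stood at 1e-100, the lower limit of the list, whereas those of PDE3A, ANKRD30BL and HFM1 had 1.35e-07, 2.63e-07 and 6.46e-07. Within each gene all rRNA-copy peaks had the same p-value, whatever their height.

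The rule lists genes and has no threshold, and some peaks of other genes were as high as those of the lower members. The highest was an LSU peak of height 5301 on chromosome 1, listed under NBPF10, NBPF9 and NOTCH2NLA, followed by an SSU peak in EFCAB11 (1777) and an LSU peak in SORCS2, a gene of the sortilin receptor family (1715). RYR2, the calcium release channel of heart muscle, had LSU peaks up to 1107. The summed height in rRNA copies was 2910 in EYA4, 2570 in PHKB and 1554 in DIP2C. In the other genes it was 5301 in NBPF10, above all of these members, 1777 in EFCAB11, 1725 in SORCS2 and 1297 in RYR2. Of these other genes, EFCAB11 had the only single-base peak among the 52 rRNA-class peaks outside the 8 genes.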

How the data were processed

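The data are 1 deposited peak list for both samples, 3XFlag-DDX18 replicates 1 and 2. Per the submitters' processing notes, FastQC 0.10.1, BWA and hg19 were used, and per the file header peaks were annotated with HOMER annotatePeaks.pl on hg19. The peak caller, the treatment of reads that align to several places and the merging of replicates are not given in the header or notes used here. Peak height, a signal without scaling, was deposited by the authors in whole numbers, and PH0 and the p-value stand in the peak name. Start and end positions and the distance score to the nearest start site are also as the authors deposited them.

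Each distinct chromosome, start, end and strand was counted once (16095 of 17163 entries). Called genes were named by Entrez identifier through RefSeq (GRCh38.p14, for names, lengths and strand only). Python 3.11.15, pandas 2.3.3 and scipy 1.17.1 were used. Intervals are exact 95% binomial (Clopper-Pearson). Stretches used a gap of 1000 nt and spacings a tolerance of 2 nt, and both steps were tested on simulated data. No test was made, because the list has 1 height per peak. All 8 listed genes are named, and of other genes those with the 6 highest rRNA-class positions. The members, lists and settings were chosen with earlier results of these data known. Alternatives were every entry, a stricter p-value or height, other gaps and tolerances, the 5' end of a peak, and a wider rule for a copy.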

Additional observations from a re-analysis of the deposited data

How the results depend on the processing

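The number of peaks in rRNA copies (32) and their median span (0 nt) kept their values with every entry counted, with p-values up to the median and with unnamed peaks within 1000 nt, and the number also with heights of 10 or more. Their share of all height, 58.1%, was 51.7% with every entry counted, because high peaks listed under several genes then add to the total, 63.7% with p-values up to the median and 64.7% with heights of 10 or more, both of which remove peaks of other genes from the total. With unnamed peaks within 2500 nt, an alternative chosen after seeing the data, the 3 further ANKRD30BL peaks brought the share to 58.8% and the number to 35. Stretches numbered 9 at gaps of 1000 and 5000 nt and 10 at 200 nt. The 8 matching LSU spacings became 1 at a tolerance of 0 nt, 8 at 5 nt and 6 with 5' ends. For SSU, 0 spacings matched at 0 and 2 nt and 1 at 5 nt. No paired analysis was possible because the list has no value per replicate, and for the same reason no replicate could be left out. Depth per sample is unknown, so a peak missing from a host gene is not shown to be absent from its RNA.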
